A study of Mus musculus with 32 samples.

Results

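The vacuolar H+-ATPase (V-ATPase) genes described here are 10 of the 74021 Ensembl genes in the deposited microglia and spinal cord tables (74016 in one of them), and they were chosen by symbol. They encode the membrane (V0) subunits *Atp6v0d2*, *Atp6v0d1*, *Atp6v0a1*, *Atp6v0b* and *Atp6v0c*, the catalytic-head (V1) subunits *Atp6v1a*, *Atp6v1b2* and *Atp6v1h*, and the accessory proteins *Atp6ap1* and *Atp6ap2*. *Atp6v0d2* was put forward because of its rise in LAG-3-high over LAG-3-low microglia, so all 10 genes are described without a test in that comparison, and *Atp6v0d2* is also described without a test against WT. The choice used symbols and set no threshold on a value. All 10 genes passed the filter on low counts in each of the 3 tables. In both microglia tables *Atp6v0d2* passed it only through the groups in which it was high, so its changes with stage and with genotype at P120 are also described without a test, and its interaction is left out.

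The V-ATPase pumps protons into lysosomes, phagosomes and endosomes. Its V1 head hydrolyses ATP and turns a rotor that runs through the V0 ring in the membrane, and acidification by the pump sets the activity of lysosomal hydrolases. Several subunits exist in alternative versions encoded by separate genes. The d subunit, which couples the V1 rotor to the V0 ring, is made either by the widely expressed *Atp6v0d1* or by *Atp6v0d2*, known from osteoclasts and macrophages. The a subunit, which carries the proton half-channels and steers the pump to its membrane, is made by *Atp6v0a1*, *Atp6v0a2*, *Tcirg1* or *Atp6v0a4*.

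LAG-3 is an inhibitory immune checkpoint receptor, and SOD1G93A mice carry a mutant human superoxide dismutase transgene and develop motor neuron disease. In the first table, CD11b+/CD45int cells, the gate for microglia, were sorted from lumbar spinal cord: 5 LAG-3-high and 5 LAG-3-low libraries from P140 SOD1G93A mice, and 4 WT libraries for which the labels give no age. In the second table, the same gate gave microglia of SOD1G93A mice that were either LAG-3+/+ or LAG-3-/-, at P120 (early symptomatic) and P140 (late symptomatic), with 3 libraries per group. The third table held whole lumbar cord of both SOD1G93A genotypes at P140, with 3 libraries each. All mice outside the WT group carried the SOD1 transgene, and the LAG-3-/- allele is a germline deletion, not one confined to microglia. Nothing in the labels says whether libraries came from separate animals, and the p-values measure the spread between these libraries.

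Library totals ran from 9403286 to 22850356 estimated counts in the LAG-3-sorted table, from 23981240 to 49512341 in the stage table and from 19429873 to 26994340 in the cord table. *Lag3* ranged from 24.5 to 63.0 CPM (counts scaled to library size with TMM factors) in SOD1G93A/LAG-3+/+ microglia and from 0.0239 to 0.462 CPM in LAG-3-/- microglia. It was 43.4 to 74.5 CPM in LAG-3+/+ cord and 5.50 to 5.72 CPM in LAG-3-/- cord. Libraries differed in how well long transcripts were represented: the median log2 deviation of transcripts of at least 4000 bases minus that of transcripts under 1000 bases was 0.30 to 0.45 in libraries of both sorted fractions. It was -1.26 and -1.65 in WT libraries 1 and 4, 0.25 and -0.16 in WT libraries 2 and 3, and -0.79 to -0.42 in P140 LAG-3+/+ microglia. P140 LAG-3-/- library 1 stood at -0.36 while the others of its group stood at 0.33 and 0.39. In cord the measure was 0.32 to 0.44 in LAG-3+/+ and -0.58 to -0.16 in LAG-3-/-. The 12 neutrophil markers summed to 22850 to 66380 CPM in LAG-3-low libraries, 5972 to 70510 CPM in WT libraries and 3.55 to 9.67 CPM in LAG-3-high libraries, and the 5 monocyte markers to 1553 to 4440, 20.2 to 2724 and 0.0667 to 6.28 CPM. One neutrophil marker and 2 monocyte markers were at 0 in all LAG-3-high libraries. The 11 microglia markers summed to 60570 to 68620 CPM in LAG-3-high, 31960 to 45480 CPM in LAG-3-low and 50810 to 62150 CPM in WT libraries. Stage groups follow in the order P120 LAG-3+/+, P120 LAG-3-/-, P140 LAG-3+/+ and P140 LAG-3-/-. Their 8 border macrophage markers summed to 2.535 to 18.63, 2.232 to 66.56, 115.8 to 143.2 and 53.11 to 123.8 CPM. Neutrophil markers summed to 1743 to 2576, 2.808 to 6.581, 3.921 to 3482 and 4.025 to 4618 CPM. Microglia markers summed to 47700 to 52670, 44840 to 50100, 86280 to 107500 and 47900 to 91340 CPM. The part of these differences in the values below was not tested, except where a correction or a left-out library is given.

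Promoter sequences are shown for the genes of the 10 that held a motif searched for. *Atp6v0a1* and *Atp6v1a* rose over WT below, and *Atp6v0d1* and *Atp6v0b* did not. RefSeq promoters of build GRCm38.p6 held 7 of the 10 genes, without *Atp6v0d2*, *Atp6v1b2* and *Atp6v1h*. Windows of 300 bases (250 before and 50 after the start) were searched on both strands for CACGTG, the E-box core, and for TCACGTGA, a longer form that contains CACGTG and is bound by the MiT/TFE factors of lysosomal gene control. They were also searched for TGANTCA, a loose form of the AP-1 motif that allows any base in the middle. Of 32851 promoters, 7.15% held CACGTG, 0.974% held TCACGTGA and 7.81% held TGANTCA. Among the 7 genes, *Atp6v0d1*, *Atp6v0b* and *Atp6v1a* held CACGTG, *Atp6v0d1* and *Atp6v1a* held it within TCACGTGA, and *Atp6v0a1* held TGANTCA in the form TGATTCA. *Atp6v0c*, *Atp6ap1* and *Atp6ap2*, which all rose in LAG-3-high over WT, held none of them and are not shown. The 280 bases shown run 5′ to 3′ on the gene's strand to 30 bases after the start, with the match in capitals: *Atp6v0a1* (chr11:101010148-101010427, plus strand, match beginning at -111), *Atp6v1a* (chr16:44139230-44139509, minus strand, -132), *Atp6v0d1* (chr8:105566035-105566314, minus strand, -4) and *Atp6v0b* (chr4:117887300-117887579, minus strand, -36 and -18).
Atp6v0a1: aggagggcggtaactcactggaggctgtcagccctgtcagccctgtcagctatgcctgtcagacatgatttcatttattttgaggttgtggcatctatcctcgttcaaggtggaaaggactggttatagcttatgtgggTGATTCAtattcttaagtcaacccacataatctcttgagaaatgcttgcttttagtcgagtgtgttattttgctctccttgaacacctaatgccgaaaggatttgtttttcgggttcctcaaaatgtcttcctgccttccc
Atp6v1a: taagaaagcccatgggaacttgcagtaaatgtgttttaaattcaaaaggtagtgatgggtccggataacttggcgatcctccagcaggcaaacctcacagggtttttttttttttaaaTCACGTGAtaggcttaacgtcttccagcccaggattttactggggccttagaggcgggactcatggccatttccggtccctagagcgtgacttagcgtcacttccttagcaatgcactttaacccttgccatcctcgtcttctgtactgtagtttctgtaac
Atp6v0d1: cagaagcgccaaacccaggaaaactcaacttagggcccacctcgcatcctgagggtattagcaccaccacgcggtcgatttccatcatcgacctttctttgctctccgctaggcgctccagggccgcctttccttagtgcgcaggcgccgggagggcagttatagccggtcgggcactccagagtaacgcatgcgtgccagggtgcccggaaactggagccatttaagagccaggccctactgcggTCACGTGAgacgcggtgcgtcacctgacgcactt
Atp6v0b: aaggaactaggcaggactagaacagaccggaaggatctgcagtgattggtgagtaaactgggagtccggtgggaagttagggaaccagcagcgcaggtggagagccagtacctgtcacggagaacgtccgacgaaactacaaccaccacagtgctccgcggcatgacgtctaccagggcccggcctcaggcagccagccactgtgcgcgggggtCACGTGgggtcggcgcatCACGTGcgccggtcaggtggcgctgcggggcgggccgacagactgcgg
A match is a description of letters.

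On a scale divided by transcript length (TPM), the proton-carrying ring subunits led in sorted microglia. In LAG-3-high microglia *Atp6v0c* was at 1486 ± 24.9 TPM (SD, n = 5), *Atp6v0b* at 917 ± 64.5 and *Atp6ap1* at 710 ± 26.3, with ranges that did not touch. *Atp6ap2* (341 ± 19.5 TPM) and *Atp6v1b2* (307 ± 8.56 TPM) overlapped, as did *Atp6v0a1* (126 ± 7.14 TPM) and *Atp6v1a* (101 ± 19.6 TPM). At the low end *Atp6v0d1* (47.3 ± 6.01 TPM), *Atp6v0d2* (42.5 ± 15.3 TPM) and *Atp6v1h* (38.1 ± 8.39 TPM) could not be ordered. In each of the other 8 groups *Atp6v0d2* had the lowest mean of the 10 genes. Whole cord of LAG-3+/+ mice had another order after *Atp6v0c* (929 ± 110 TPM, n = 3): *Atp6v1b2* came next at 516 ± 87.7 TPM, *Atp6v0b* was at 292 ± 13.9 TPM, and *Atp6v0d2* was at 5.14 ± 1.19 TPM. *Atp6v0c* has processed pseudogenes, and how reads were divided among them is uncertain.

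*Atp6v0d2* (ENSMUSG00000028238; GRCm39 chr4:19876838-19922614, minus strand, 8 exons) separated the sorted fractions without overlap. In LAG-3-high libraries 1 to 5 it was at 67.9, 63.0, 30.7, 46.8 and 89.3 CPM, from 498 to 1267 counts. In LAG-3-low libraries 1 to 5 it was at 4.32, 4.41, 9.59, 0 and 0 CPM, from 94, 64, 234, 0 and 0 counts. LAG-3-low libraries 4 and 5 therefore had no count for a gene that libraries 1 to 3 had well above the 3 counts that a count of 0 allows (0.145 and 0.131 CPM in those libraries). Listed sex was male for libraries 1 to 3 and female for 4 and 5 in both fractions. Its part in the split within LAG-3-low was not tested. Among 4 WT libraries, 3 had no count and library 3 had 1 count. As the ratio of mean CPM, LAG-3-high was 16.2 times LAG-3-low, and 27.3 times without LAG-3-low library 3. Against the single WT count, the ratio for LAG-3-high was 3821, with a 95% exact counting interval from 685 to 150961, and for LAG-3-low it was 243 (43.3 to 9613), intervals that cover counting error only.

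The alternative version *Atp6v0d1* (ENSMUSG00000013160; chr8:106251086-106292747) moved much less. It was at 41.5, 49.8, 39.0, 39.4 and 51.5 CPM in LAG-3-high, at 34.5, 38.8, 22.1, 28.0 and 39.9 CPM in LAG-3-low, and at 31.3, 16.6, 39.5 and 61.7 CPM in WT libraries. The 3 groups overlapped, and neither SOD1G93A fraction passed the test against WT (edgeR adjusted p = 0.749 for LAG-3-low and 0.652 for LAG-3-high). *Atp6v0d2* made up 46.1% ± 7.65 (SD, n = 5; 34.5 to 53.7%) of the d subunit transcripts on the length-scaled scale in LAG-3-high microglia. The share was 7.46% ± 9.18 in LAG-3-low (0 to 22.5%; 3.7% without library 3) and 0.0239% on average in WT microglia. The sum of both d genes was 89.7 ± 20.3 TPM in LAG-3-high, 47.5 ± 9.71 in LAG-3-low and 36.7 ± 12 TPM in WT microglia.

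**Figure D1:**
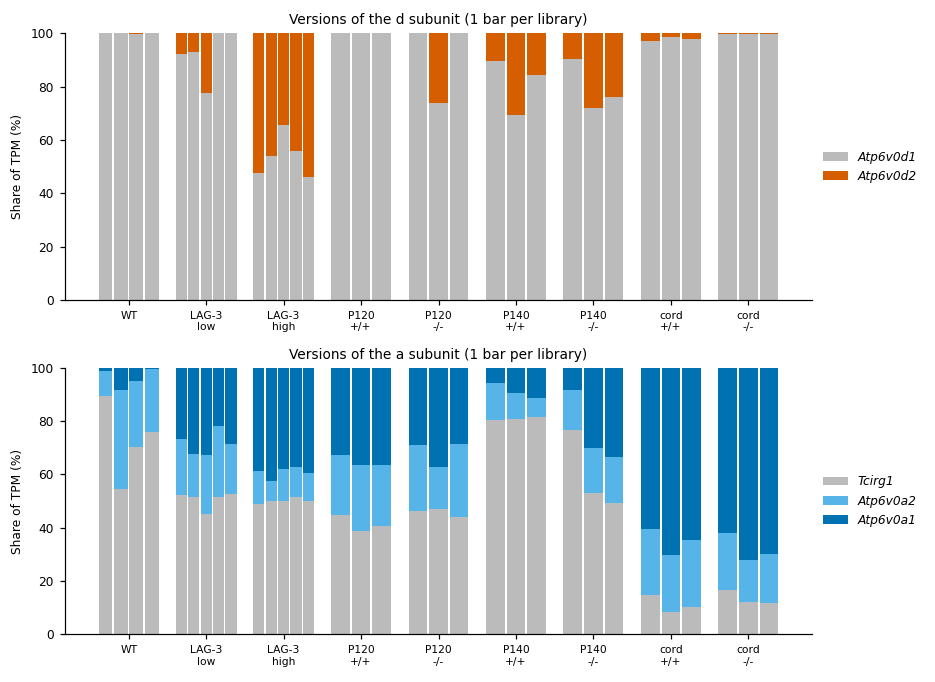
Stacked bars, 1 per library in the 9 groups, of the share (percent of length-scaled TPM) of *Atp6v0d1* and *Atp6v0d2* among d subunit transcripts (top) and of *Tcirg1*, *Atp6v0a2* and *Atp6v0a1* among a subunit transcripts (bottom; *Atp6v0a4*, at or near 0, is not drawn). LAG-3-high libraries reach 34.5 to 53.7% for *Atp6v0d2*, against at most 22.5% in LAG-3-low libraries, and *Atp6v0a1* falls to 8.92% on average in P140 LAG-3+/+ microglia.

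Of the other genes, *Atp6v0a1* (chr11:100881700-100954548), the a subunit version best known from neurons, differed most from WT. It was at 294, 315, 271, 260 and 293 CPM in LAG-3-high and at 138, 157, 207, 129 and 192 CPM in LAG-3-low libraries. WT libraries 1 to 4 were at 7.44, 39.3, 18.9 and 1.59 CPM, with the lowest values in libraries 1 and 4, which had the fewest counts on long transcripts. The log2 difference from WT was 3.29 ± 0.62 (SE) for LAG-3-low (edgeR adjusted p = 0.00373) and 4.09 ± 0.65 for LAG-3-high (adjusted p = 0.000682). After adjusting for transcript length and GC, LAG-3-low remained 2.98 above WT (adjusted p = 0.002), and with WT libraries 2 and 3 alone 2.56 (adjusted p = 0.00021). Its share of a subunit transcripts was 3.69% ± 3.54 in WT (n = 4), 28.5% ± 4.53 in LAG-3-low and 39.1% ± 2.01 in LAG-3-high microglia, while *Tcirg1* held 72.5%, 50.7% and 50.1%.

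The ring subunits parted. *Atp6v0c*, the proteolipid that makes up most of the proton-carrying ring, was at 1206, 1199, 1184, 1074 and 1206 CPM in LAG-3-high, at 705, 739, 670, 593 and 675 CPM in LAG-3-low and at 283, 385, 468 and 240 CPM in WT libraries, with no overlap among the 3 groups. In log2 units LAG-3-high rose over WT by 1.77 ± 0.19 (edgeR adjusted p = 2.4e-05), and LAG-3-low was 0.98 ± 0.18 above WT (adjusted p = 0.00327), just short of the fold minimum. The related ring subunit *Atp6v0b* was at 492, 545, 570, 461 and 542 CPM in LAG-3-high, at 416, 454, 441, 444 and 484 CPM in LAG-3-low and at 743, 436, 578 and 603 CPM in WT libraries. Both fractions lay within or across the WT range, with log2 differences of -0.18 ± 0.16 for LAG-3-high (adjusted p = 0.447) and -0.40 ± 0.16 for LAG-3-low (adjusted p = 0.091, under the fold minimum).

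Among the V1 genes, *Atp6v1a*, the catalytic subunit that hydrolyses ATP, was at 347, 232, 218, 212 and 268 CPM in LAG-3-high, at 126, 170, 115, 114 and 121 CPM in LAG-3-low and at 13.9, 53.1, 81.3 and 72.5 CPM in WT libraries, again without overlap. It rose over WT by 2.21 ± 0.39 on the log2 scale in LAG-3-high (edgeR adjusted p = 0.00164) and by 1.22 ± 0.38 in LAG-3-low (adjusted p = 0.0399), the latter 0.96 without WT library 1 and 0.98 with the length and GC correction, both under the fold minimum, and not called in a fit of the 2 groups alone (adjusted p = 0.118). *Atp6v1b2*, its non-catalytic partner in the head, was at 492, 485, 481, 425 and 493.4 CPM in LAG-3-high, at 363, 376, 284, 280 and 327 CPM in LAG-3-low and at 82.0, 165, 269 and 91.6 CPM in WT libraries. It rose by 1.65 ± 0.30 in LAG-3-high (adjusted p = 0.00176) and by 1.10 ± 0.29 in LAG-3-low (adjusted p = 0.02), the latter under the fold minimum without WT library 1 or 4 (0.97 and 0.92), with the length and GC correction (0.88) and with WT libraries 2 and 3 alone (0.68). *Atp6v1h*, a regulatory subunit needed to switch the pump on, overlapped in all 3 groups (67.5 to 116, 53.3 to 86.4 and 8.38 to 107 CPM) and did not pass the test against WT (adjusted p = 0.398 and 0.659).

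The accessory proteins had graded levels. *Atp6ap1*, an assembly factor that stays in the V0 sector, was at 877, 907, 878, 791 and 821 CPM in LAG-3-high, at 546, 569, 574 and 642 CPM in LAG-3-low libraries 1, 2, 4 and 5, with library 3 lowest, and at 255, 401, 591 and 271 CPM in WT libraries. *Atp6ap2*, the (pro)renin receptor, was at 454, 411, 448, 422 and 482 CPM, at 272, 315, 270, 307 and 375 CPM and at 204, 225, 315 and 116 CPM in the same groups. In both genes the LAG-3-high libraries lay above all others, and LAG-3-low overlapped WT. LAG-3-high rose over WT by 1.17 ± 0.22 for *Atp6ap1* (edgeR adjusted p = 0.0021) and by 1.05 ± 0.23 for *Atp6ap2* (adjusted p = 0.00604), which came to 0.84 and 0.77 with WT libraries 2 and 3 alone and to 0.84 and 0.71 with library totals, under the fold minimum. *Atp6ap2* was also under it without WT library 4, at 0.85.

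Counted together, 6 of the 9 genes tested against WT rose in LAG-3-high (*Atp6v0a1*, *Atp6v0c*, *Atp6v1a*, *Atp6v1b2*, *Atp6ap1* and *Atp6ap2*) and none fell, where 27.0% of all 16508 genes tested were called, 12.1% of them upwards and 14.9% downwards. In LAG-3-low, 3 of the 9 rose (*Atp6v0a1*, *Atp6v1a* and *Atp6v1b2*) and none fell, where 21.9% of all genes were called, 10.9% of them upwards. Both comparisons share the WT libraries. The same 6 genes lay above all WT libraries in LAG-3-high, where 20.9% of all genes did not overlap (12.4% higher, 8.55% lower), and 4 of the 9 in LAG-3-low (*Atp6v0c* in addition to the 3 called), where 15.7% did not (9.78% higher, 5.95% lower). For LAG-3-high against LAG-3-low no call is made on the 10 genes, since that comparison put *Atp6v0d2* forward. Of all genes tested there, 3.49% were called (0.818% upwards, 2.67% downwards), and the ranges of 7 of the 10 did not overlap, all higher, where those of 15.5% of all genes did not (8.95% higher, 6.52% lower), from which nothing is read. The log2 difference was positive in all 10 genes, with a median of 0.56 against -0.02 over all genes tested: 0.80 for *Atp6v0a1* and *Atp6v0c*, 0.99 for *Atp6v1a*, 0.58 for *Atp6ap1*, 0.54 for *Atp6v1b2*, 0.53 for *Atp6ap2*, 0.44 for *Atp6v0d1*, 0.25 for *Atp6v1h* and 0.22 for *Atp6v0b*. With library totals in place of TMM factors *Atp6v0b* and *Atp6v1h* turned negative (-0.16 and -0.13), and 7 others, without *Atp6v0d2*, stood at 0.06 to 0.61.

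**Figure D2:**
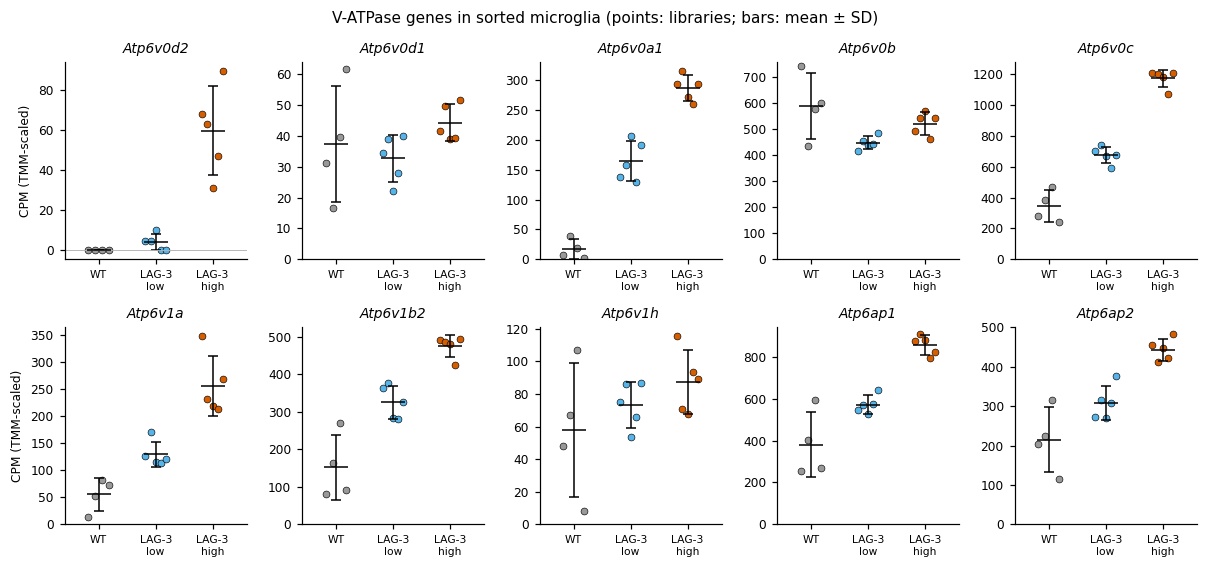
TMM-scaled CPM of the 10 genes, 1 panel per gene on a linear axis, in the 3 sorted groups; points are libraries and bars the mean ± SD. *Atp6v0c* runs from 240 to 468 CPM in WT through 593 to 739 in LAG-3-low to 1074 to 1206 in LAG-3-high libraries, and *Atp6v0b* shows no such order.

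Of 16 other V-ATPase subunit genes, 11 were tested and *Atp6v0a4*, *Atp6v1b1*, *Atp6v1c2*, *Atp6v1e2* and *Atp6v1g3* were too low in every table. None of the 11 was called for LAG-3-high against LAG-3-low by edgeR, with 4 at an unadjusted p under 0.05. Against WT only *Atp6v1c1*, the stalk subunit that holds the head to the membrane sector, rose in both fractions, by 1.91 in LAG-3-high (edgeR adjusted p = 0.00136) and 1.15 in LAG-3-low (adjusted p = 0.027). *Atp6v0e2* fell by 2.41 and 1.91 (adjusted p = 0.00376 and 0.0165), and *Rnasek* fell by 1.32 in LAG-3-low (adjusted p = 0.0477). Their median log2 difference was -0.08 in LAG-3-high and -0.46 in LAG-3-low, against -0.08 and 0.04 over all genes.

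The genes that work beside the pump were tested as well. Of 11 lysosomal channels and transporters, 4 rose in LAG-3-high over WT and 1 fell, beside the 12.1% and 14.9% of all genes given above for this comparison. *Clcn7*, the chloride-proton exchanger of lysosomes, was at 225 to 321 CPM in LAG-3-high, 119 to 163 CPM in LAG-3-low and 27.7 to 58.2 CPM in WT libraries, a rise of 2.77 (edgeR adjusted p = 4.88e-06) and 1.95 (adjusted p = 0.000215) in log2 units. Its partner *Ostm1* (1.38) and the cation channels *Mcoln1* (1.25) and *Tpcn2* (3.26) rose in LAG-3-high, and *Slc36a1*, an amino acid transporter, fell by 1.26. Of 11 assembly and regulatory factors only *Rogdi* was called in LAG-3-high (-1.48, adjusted p = 0.000208) and only *Dmxl2* in LAG-3-low (2.35, adjusted p = 0.0268). Of 13 genes for MiT/TFE transcription factors and lysosomal mTORC1 docking, 4 rose in LAG-3-high and 1 fell, against the same shares, among them *Tfeb*, a regulator of lysosomal genes (1.45, adjusted p = 0.0255), and *Mitf* (1.501, adjusted p = 0.0791), and *Lamtor5* fell by 1.30. Of 9 osteoclast and fusion genes known for expression with *Atp6v0d2*, 5 were tested. Against WT, 2 of these (*Acp5* and *Dcstamp*) rose in both fractions, where 12.1% of all genes rose in LAG-3-high and 10.9% in LAG-3-low. *Mmp9* fell in LAG-3-high against WT, where 14.9% of all genes fell. *Dcstamp*, a fusion receptor, was at 3.05 to 11.3 CPM in LAG-3-high, 0 to 26.6 CPM in LAG-3-low and 0 CPM in all WT libraries, and *Mmp9* was at 156 to 721 CPM in LAG-3-low, 0 to 188 CPM in WT and 0 CPM in all LAG-3-high libraries. The neutrophil marker sums given above were also lowest in LAG-3-high libraries, and their part in *Mmp9* was not tested.

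By the fixed rule, the genes whose levels followed *Atp6v0d2* most closely over the 14 sorted libraries were *Mamdc2* (Pearson r = 0.929), *Aldoa* (0.907), *Pld3* (0.903), *Snx3* (0.902) and *Ucp2* (0.901). Over the 12 stage libraries they were *Cox6a2* (0.879), *Gpx3* (0.874), *Gm65338* (0.873), *Wfdc17* (0.868) and *Crip1* (0.865), and the lists had no gene in common. These values are descriptions; the points share groups and library preparation.

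The stage table asked how deletion of LAG-3 changes microglia at P120 and P140. In P120 LAG-3+/+ libraries *Atp6v0d2* had no count in any library, which allows up to 0.0555 to 0.0768 CPM per library. Its P120 LAG-3-/- values were 0, 15.9 and 0 CPM, with all 481 counts in library 2. At P140 it was at 3.53, 26.5 and 8.11 CPM in LAG-3+/+ and at 3.63, 23.4 and 14.2 CPM in LAG-3-/- libraries, ranges that overlap. P140 LAG-3+/+ microglia were at least 197-fold above P120 LAG-3+/+ (mean 12.7 CPM against a floor of 0.0647 CPM, the mean of 3 counts per library), and at least 90-fold without P140 LAG-3+/+ library 2. The border macrophage and microglia marker sums given above were also higher at P140 in LAG-3+/+, and their part in this rise was not tested. The log2 difference between genotypes at P140 was 0.11 ± 1.95 (adjusted p = 0.985), an error too wide to show a difference of either sign. At P120 the difference rests on 1 library and is given without a test. Its share of d subunit transcripts was 18.9% ± 10.6 in P140 LAG-3+/+ (13% without library 2) and 20.6% ± 9.55 in P140 LAG-3-/- microglia (SD, n = 3).

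*Atp6v0a1* moved the other way with stage. It was at 194, 226 and 206 CPM in P120 LAG-3+/+, at 179, 229 and 180 CPM in P120 LAG-3-/-, at 29.6, 28.6 and 41.6 CPM in P140 LAG-3+/+ and at 41.8, 195 and 205 CPM in P140 LAG-3-/- libraries. Library 1 of the last group lay beside the P140 LAG-3+/+ libraries and the other two beside P120. The log2 difference of P140 from P120 in LAG-3+/+ was -2.65 ± 0.47 (edgeR adjusted p = 0.00642), and -2.21 (adjusted p = 0.0124) with the length and GC correction. At P140 it was higher in LAG-3-/- by 2.14 ± 0.46 (adjusted p = 0.0356) and by 1.72 (adjusted p = 0.0718) with that correction. The genotype call was lost without P140 LAG-3+/+ library 2 (adjusted p = 0.106), P140 LAG-3-/- library 2 (0.153) or library 3 (0.136). Its share of a subunit transcripts was 35.2% ± 2.26 in P120 LAG-3+/+, 8.92% ± 2.8 in P140 LAG-3+/+ and 24% ± 13.6 in P140 LAG-3-/-, while *Tcirg1* stood at 41.4%, 80.9% ± 0.488 and 59.6% ± 14.8.

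The ring subunits rose with stage in LAG-3+/+ microglia. *Atp6v0b* was at 464, 483 and 461 CPM at P120 and at 724, 942 and 892 CPM at P140 (log2 difference 0.86 ± 0.19, edgeR adjusted p = 0.0115; 0.50, adjusted p = 0.0407, with the length and GC correction). In LAG-3-/- it was at 479, 498 and 423 CPM at P120 and at 676, 565 and 419 CPM at P140, below all P140 LAG-3+/+ libraries. The genotype difference at P140 was -0.62 ± 0.19 (adjusted p = 0.0815) and was lost with the correction (-0.38, adjusted p = 0.172), with library totals (-0.32, adjusted p = 0.138), with sex as a covariate (0.112), with no filter on low counts (0.162), with either P140 LAG-3-/- library 2 or 3 left out (adjusted p = 0.221 and 0.242), and with P140 LAG-3+/+ library 2 or 3 left out (0.21 and 0.189). Leaving out any 1 P120 library also took it past the threshold (0.109 to 0.131). *Atp6v0c* was at 770, 743 and 620 CPM at P120 and at 984, 1165 and 1431 CPM at P140 in LAG-3+/+ (0.75 ± 0.24, adjusted p = 0.0518), a call lost with the correction (0.36, adjusted p = 0.307), with library totals (0.25, adjusted p = 0.338) and without P120 LAG-3+/+ library 1, 2 or 3 (0.106, 0.122 and 0.168) or P140 LAG-3+/+ library 2 or 3 (0.102 and 0.174). *Atp6v0d1* ran from 20.9 to 40.2 CPM over the 12 libraries and was called in none of the comparisons.

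**Figure D3:**
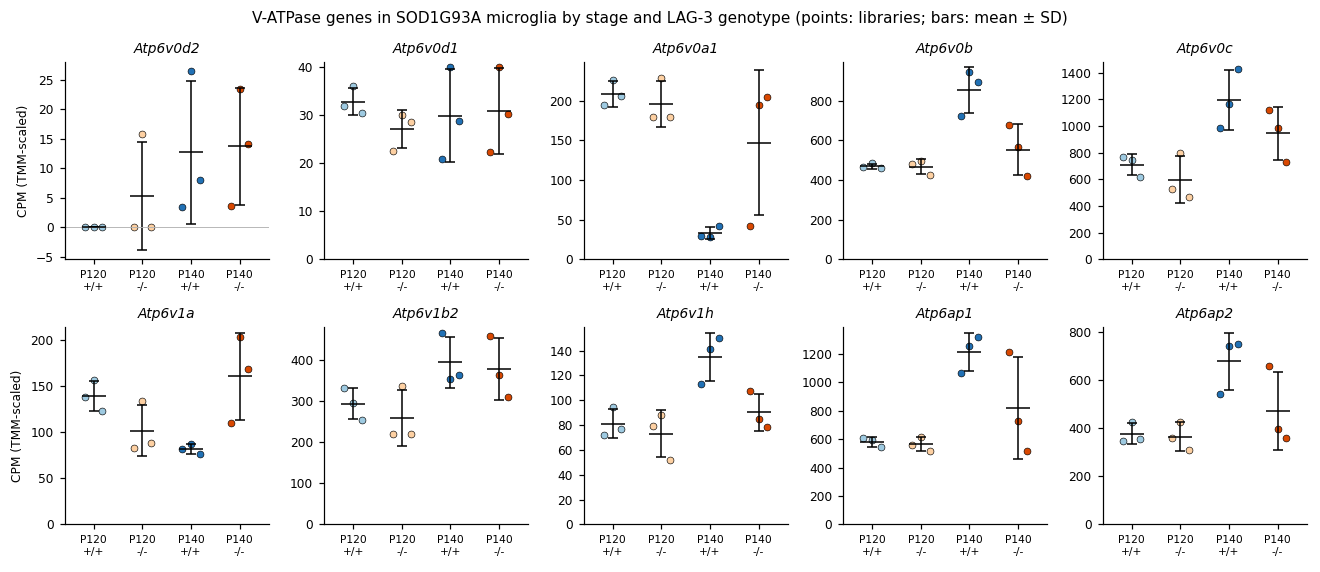
TMM-scaled CPM of the 10 genes, 1 panel per gene on a linear axis, in P120 and P140 microglia of both genotypes; points are libraries and bars the mean ± SD. The 3 P140 LAG-3+/+ libraries lie at 28.6 to 41.6 CPM for *Atp6v0a1*, against 179 to 229 CPM in the P120 libraries of both genotypes, and *Atp6v0d2* is at 0 in all P120 LAG-3+/+ libraries.

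The V1 genes split as well. *Atp6v1a* was at 138, 156 and 123 CPM in P120 and at 81.8, 86.6 and 76.5 CPM in P140 LAG-3+/+ libraries, a log2 difference of -0.77 ± 0.25 (edgeR adjusted p = 0.0549), and at 110, 203 and 168 CPM in P140 LAG-3-/- libraries, 0.97 ± 0.25 above LAG-3+/+ (adjusted p = 0.0574). With the length and GC correction neither passed (-0.20, adjusted p = 0.632, and 0.48, adjusted p = 0.263). The stage call was also lost without P120 LAG-3+/+ library 1 or 2 (0.123 and 0.166) or P140 LAG-3+/+ library 2 or 3 (0.102 and 0.144), and the genotype call without P140 LAG-3+/+ library 2 or 3 (0.126 and 0.141) or P140 LAG-3-/- library 2 or 3 (0.231 and 0.177). *Atp6v1h* rose with stage in LAG-3+/+, from 72.02, 94.5 and 77.1 to 113, 141 and 150 CPM (0.73 ± 0.24, adjusted p = 0.0515; 1.10, adjusted p = 0.026, corrected), with the call lost at library totals (0.23, adjusted p = 0.452), with no filter on low counts (0.139) and without P120 LAG-3+/+ library 1 or 3 (0.168 and 0.152) or P140 LAG-3+/+ library 2 or 3 (0.122 and 0.151). *Atp6v1b2* was at 331, 295 and 255 CPM at P120 and at 353 and 364 CPM in P140 libraries 2 and 3, with library 1 highest, and did not pass (0.42 ± 0.22, adjusted p = 0.21), although DESeq2 called it (0.54, adjusted p = 0.0747).

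The accessory genes rose with stage too. *Atp6ap1* was at 607, 596 and 543 CPM in P120 and at 1064, 1255 and 1319 CPM in P140 LAG-3+/+ libraries (1.06 ± 0.26, edgeR adjusted p = 0.0182; 0.56, adjusted p = 0.0895, corrected). *Atp6ap2* was at 348, 427 and 356 CPM and at 541, 742 and 749 CPM (0.84 ± 0.25, adjusted p = 0.0351), a call lost with the correction (0.30, adjusted p = 0.342), with library totals (0.34, adjusted p = 0.187) and without P120 LAG-3+/+ library 1 or 3 or P140 LAG-3+/+ library 3 (adjusted p = 0.116, 0.113 and 0.106). In LAG-3-/- microglia at P140 they were at 1216, 728 and 514 CPM and at 657, 396 and 358 CPM, with library 1 beside the LAG-3+/+ libraries. The genotype differences of -0.57 and -0.53 did not pass (adjusted p = 0.208 and 0.214), but without P140 LAG-3-/- library 1 they were -0.96 (adjusted p = 0.00688) and -0.84 (adjusted p = 0.0205).

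In all, 7 of the 9 genes other than *Atp6v0d2* were called between P140 and P120 in LAG-3+/+ (5 higher, 2 lower), where 27.4% of 18669 genes were (11.9% higher, 15.5% lower), and 8 of the 9 did not overlap (6 higher, 2 lower), where 42.2% of genes did not (16.8% higher, 25.4% lower). With the length and GC correction 4 of the 7 remained called, and as many with library totals. At P140, 3 of 10 were called between genotypes (*Atp6v0a1* and *Atp6v1a* higher in LAG-3-/-, *Atp6v0b* lower), where 10.2% of genes were (7.22% higher), and 4 of 10 did not overlap, where 21.1% did not. Without P140 LAG-3-/- library 1 the count was 6, and without P140 LAG-3+/+ library 2 or P140 LAG-3-/- library 2 or 3 it was 0, as in a fit of the 2 groups alone. Without P140 LAG-3+/+ library 3 it was 1. Over all genes, leaving out each library in turn gave 95 to 4140 calls between genotypes at P140, against 1908 in the full fit. None of the 9 genes other than *Atp6v0d2* was called between genotypes at P120 (0.0107% of genes were), between P140 and P120 in LAG-3-/- (0% were) or for the genotype-by-stage interaction (0.171% were). *Atp6v0d1* alone did not overlap between genotypes at P120, where it was lower in LAG-3-/- (11.5% of genes did not overlap, 4.85% higher and 6.63% lower), and all 10 overlapped between stages in LAG-3-/- (14.8% of genes, 7.39% higher and 7.37% lower). In these 3 comparisons 1, 3 and 4 of the 10 had an unadjusted edgeR p under 0.05, beside 551, 1658 and 2541 of all genes. These counts cover *Atp6v0d2* too, whose P120 LAG-3-/- counts all lie in library 2 and from which nothing is read. DESeq2 called 0, 0 and 2 of the other 9. The 2 were *Atp6v0a1* and *Atp6v1a*. The interaction, which tests whether the genotype difference changed with stage, was 2.23 ± 0.63 for *Atp6v0a1* (adjusted p = 0.205) and 1.43 ± 0.36 for *Atp6v1a* (adjusted p = 0.185). Without P140 LAG-3-/- library 1 these were 2.68 (adjusted p = 0.00176) and 1.64 (adjusted p = 0.0171), and 4 of the 9 without *Atp6v0d2* were called. Over all genes, leaving out each library in turn gave 0 to 1713 calls for the interaction, against 32 in the full fit. The comparisons at P140 and between stages share the P140 LAG-3+/+ libraries, and those within LAG-3+/+ share no library with those within LAG-3-/-. All of them share the scaling, the filter and the estimate of the spread.

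Of the 11 other subunits tested, 7 rose from P120 to P140 in LAG-3+/+ (*Atp6v0e*, *Atp6v1c1*, *Atp6v1d*, *Atp6v1e1*, *Atp6v1f*, *Atp6v1g1* and *Rnasek*). *Atp6v0a2* fell by 1.74 in log2 units (edgeR adjusted p = 0.0108) and 3 were not called. In LAG-3-/- none of the 11 was called between stages. With stage in LAG-3+/+, 11.9% of all genes rose and 15.5% fell. *Atp6v1g1* and *Atp6v1d*, parts of the stalk and rotor, rose by 1.65 and 1.54 (adjusted p = 0.00565 for both), and *Atp6v1f* by 1.35 (adjusted p = 0.00636). At P140 *Atp6v1g1*, *Atp6v1d* and *Atp6v1f* fell in LAG-3-/- by 1.10, 0.92 and 0.88 (adjusted p = 0.0477, 0.0611 and 0.0609), and *Atp6v0a2* rose by 1.21 (adjusted p = 0.0826). Of all genes, 10.2% were called between genotypes at P140, with 7.22% higher in LAG-3-/-. The median log2 difference of the 11 other subunits was 1.34 between stages in LAG-3+/+ and -0.88 between genotypes at P140. Over all genes these medians were -0.22 and 0.14. The transcripts of *Atp6v1g1* (1135 bases) and *Atp6v1f* (703 bases) are shorter than those of *Atp6v0a1* (4140 bases) and *Atp6v0a2* (5381 bases), and the length measure of the libraries moved with both comparisons. *Atp6v1c1*, with 6433 bases, rose with stage by 1.11. Corrected log2 differences of these other subunits are not given here, and the part of transcript length in them was not tested.

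**Figure D4:**
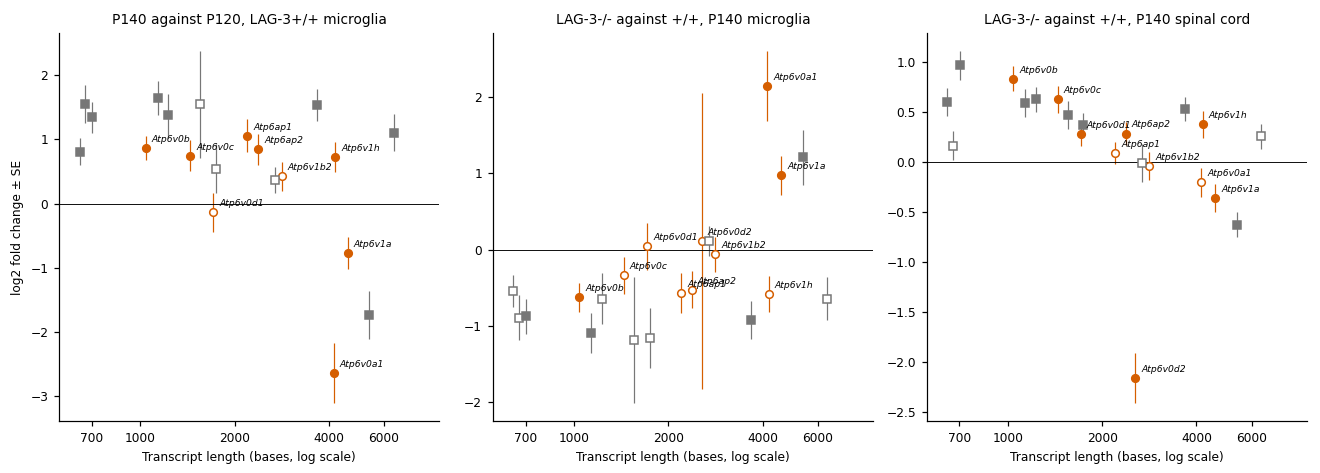
Log2 fold change ± SE (vertical axis) against transcript length in bases (horizontal log axis) for the 10 genes (circles) and the other tested subunits (squares), filled where the adjusted p is under 0.1, in 3 panels: stage in LAG-3+/+ microglia (without *Atp6v0d2*, whose P120 counts are all 0), genotype in P140 microglia and genotype in cord. Between stages in LAG-3+/+ the 4140-base *Atp6v0a1* lies at -2.65 and the 1135-base *Atp6v1g1* at 1.65.

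Around the pump, *Clcn7* and *Clcn3* fell by 2.10 and 1.77 in log2 units with stage in LAG-3+/+ (edgeR adjusted p = 0.017 and 0.00699) and *Mcoln1* rose by 0.64 (adjusted p = 0.0606). *Clcn7* was higher in LAG-3-/- at P140 by 2.34 (adjusted p = 0.0375). Of 11 assembly and regulatory factors, 4 rose with stage in LAG-3+/+ (*Vma21*, *Tmem199*, *Ccdc115* and *Rogdi*) and 3 fell (*Dmxl1*, *Wdr7* and *Tbc1d24*), where 11.9% of all genes rose and 15.5% fell. Of 12 tested MiT/TFE and docking genes, all 5 *Lamtor* genes rose with stage, by 0.95 to 1.51, and *Tfe3*, *Mitf*, *Rragc* and *Rragd* fell, against the same shares. Between genotypes at P140, where 10.2% of all genes were called, *Dmxl1* was higher in LAG-3-/- (2.29) and *Tmem199* and *Ccdc115* were lower (-1.13 and -0.85). *Tfe3* and *Rragd* were also higher (1.27 and 3.84), and *Lamtor2*, *Lamtor3* and *Lamtor5* lower (-1.03, -1.08 and -0.93). Of the osteoclast and fusion genes *Nfatc1* alone was called, between P140 and P120 in LAG-3+/+, with a log2 difference of -2.10 (edgeR adjusted p = 0.0467). None of them was called between genotypes at P140.

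In whole lumbar cord *Atp6v0d2* was lower without LAG-3 in every library. It was at 5.76, 3.61 and 4.88 CPM (154, 84 and 125 counts) in LAG-3+/+ and at 1.03, 1.14 and 1.001 CPM (18, 29 and 20 counts) in LAG-3-/- cord, without overlap. The log2 difference was -2.16 ± 0.25, a 4.46-fold fall (edgeR adjusted p = 0.000294), and -2.13 (adjusted p = 0.000658) with the length and GC correction. With each library left out in turn it stayed between -2.32 and -2. In bulk cord, fewer cells of a type and less RNA per cell cannot be told apart. The 11 microglia markers summed to 2196 to 2977 CPM in LAG-3+/+ and 1743 to 2610 CPM in LAG-3-/- cord, ranges that overlap, and the 5 monocyte markers to 46.2 to 54.4 and 26.7 to 30.7 CPM, which do not. The part of these markers in the fall of *Atp6v0d2* was not tested. Its share of d subunit transcripts was 2.01% ± 0.685 in LAG-3+/+ and 0.366% ± 0.027 in LAG-3-/- cord (SD, n = 3).

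The other members of the pump moved in both directions by small amounts. *Atp6v0b* was at 106, 112 and 111 CPM in LAG-3+/+ and at 225, 193 and 168 CPM in LAG-3-/- cord (log2 difference 0.83 ± 0.12, edgeR adjusted p = 0.000665), and *Atp6v0c* at 433, 535 and 485 CPM against 808, 750 and 684 CPM (0.63 ± 0.13, adjusted p = 0.00361). With the length and GC correction they were 0.31 (adjusted p = 0.0526) and 0.15 (adjusted p = 0.417). *Atp6v1h* was at 121, 165 and 146 CPM against 206, 189 and 167 CPM (0.38 ± 0.14, adjusted p = 0.0448), and with the correction 0.64 (adjusted p = 0.00665). *Atp6v0d1* (138 to 176 against 192 to 195 CPM) and *Atp6ap2* (155 to 187 against 193 to 220 CPM) were slightly higher (0.28 and 0.29, adjusted p = 0.0804 and 0.0749), with *Atp6v0d1* at -0.05 (adjusted p = 0.81) and *Atp6ap2* at 0.28 (adjusted p = 0.0811) after the correction. *Atp6v1a* was lower (372 to 504 against 305 to 371 CPM; -0.36, adjusted p = 0.0635; -0.08, adjusted p = 0.698, corrected), and *Atp6v0a1*, *Atp6ap1* and *Atp6v1b2* did not pass (-0.20, 0.09 and -0.04, adjusted p = 0.285, 0.559 and 0.861).

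By the fold minimum *Atp6v0d2* was the 1 gene of 10 called in cord, where 7.52% of 17702 genes were (4.37% higher, 3.15% lower). Without the fold minimum 7 of 10 passed, 5 higher and 2 lower, where 47.1% of all genes did (23.1% higher, 23.9% lower), and the same 7 did not overlap, where 51.6% of all genes did not (25.5% higher, 26.1% lower). None of the 11 other subunits reached the fold minimum, and 8 passed at an adjusted p under 0.1 (7 higher, 1 lower), with *Atp6v1f* at 0.97 (edgeR adjusted p = 0.000712). *Lamtor4* was the only MiT/TFE or docking gene past both thresholds (1.03, adjusted p = 0.000776). Oligodendrocyte markers summed to 16800 to 18330 CPM in LAG-3+/+ and 23780 to 33230 CPM in LAG-3-/- cord, astrocyte markers to 14260 to 16060 and 9213 to 13990 CPM, and neuron markers to 4203 to 6068 and 5600 to 6099 CPM. The part of these sums in the differences was not tested.

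**Figure D5:**
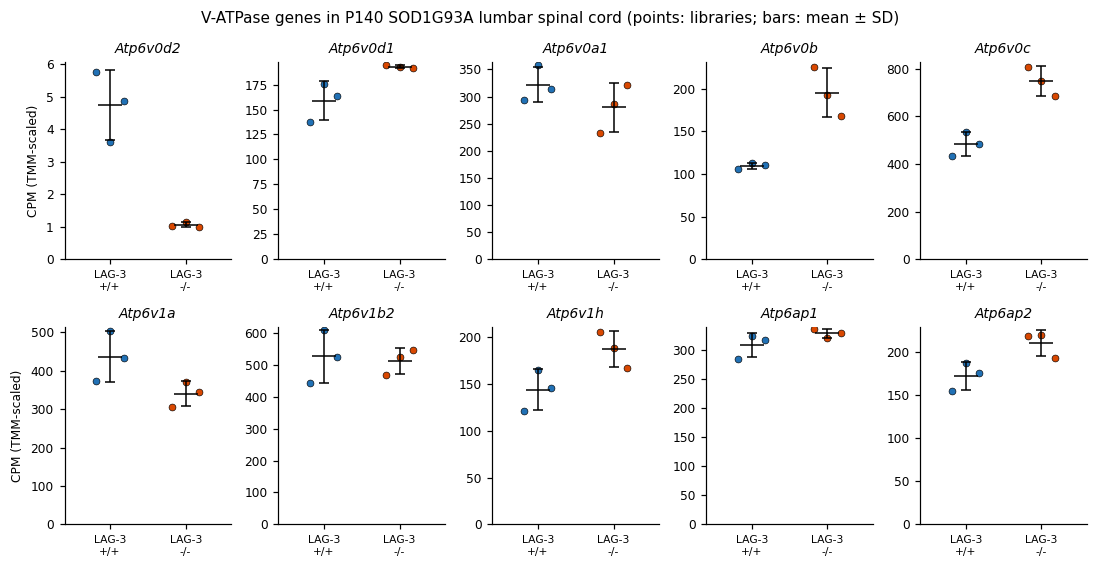
TMM-scaled CPM of the 10 genes, 1 panel per gene on a linear axis, in P140 lumbar cord of both genotypes; points are libraries and bars the mean ± SD. *Atp6v0d2* lies at 3.61 to 5.76 CPM in LAG-3+/+ and at 1.001 to 1.14 CPM in LAG-3-/- cord, and *Atp6v0b* at 106 to 112 and 168 to 225 CPM.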

How the data were processed

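The authors deposited estimated counts (3 tables, 1 row per Ensembl gene), made with Trim Galore 0.6.7, Salmon 1.9.0 and tximport under R 4.2.1 on GRCm39; the annotation release is not given in the sources used here. The values were rounded to whole numbers. Identifiers were matched to GENCODE vM39. Each table was fitted in edgeR 4.0.16 (R 4.3.3) by the robust quasi-likelihood test, after filterByExpr at 10 counts (15 in total) and TMM scaling. Benjamini-Hochberg adjustment covered the 16508, 18669 and 17702 genes that passed. The call threshold was an adjusted p of 0.1, joined for the sorted and cord tables by a fold minimum of 1 on the log2 scale in either direction. TPM used the canonical transcript. The scripts were tested on simulated data.

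The 10 genes and all gene lists were chosen with earlier results of these data known. Named genes are the 10 and lists of pump-related genes, with the 5 genes per table most correlated with *Atp6v0d2* at a mean of at least 10 CPM. *Atp6v0d2* was planned to be tested for stage, for genotype at P120 and for the interaction, and is described or left out there instead. Intervals and floors (3 counts per library) cover counting error only. Alternatives were DESeq2 1.42.0, other scalings and filters, a replicate block, sex, a length and GC correction, fits of 2 groups, a threshold of 0.05 and leaving out each library. With SMART-seq libraries of sorted cells, coverage of long transcripts varied between libraries. For the cord libraries, the paper's methods name a directional kit while the labels name SMART-seq. Over all pairs of groups, same-numbered libraries had mean correlations of 0.014, -0.00326 and 9.67e-04 in the sorted, stage and cord tables. Across the sorted fractions alone, numbers 1 to 5 gave 0.0195, 0.0666, -0.00134, 0.0674 and 0.0094. Numbers 2 and 4 exceeded the largest value for unlike numbers in the sorted table (0.0428). Listed sex also matched by number in these fractions. Whether same-numbered fractions came from the same mice was not tested.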

Additional observations from a re-analysis of the deposited data

Results flagged for a closer look

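In 5 of 33 sets of values tested, 1 library stood apart from the rest of its group by Dixon's 95% limit, which chance passes in about 1 of 20 groups. WT library 3 alone held a count of *Atp6v0d2* (0.0565 CPM, 1 count), and with it a share of 0.0957% of d subunit transcripts. LAG-3-high library 4 was lowest for *Atp6v0c* (1074 CPM) and for *Atp6v1b2* (425 CPM), where the medians of the others were 1202.5 and 488.25 CPM. LAG-3-low library 2 was highest for *Atp6v1a* (170.1 CPM), where the median of the others was 117.8 CPM.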

How the results depend on the processing

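The number of genes called changed with the setting in several of the 9 comparisons, and the cause was not tested. For LAG-3-high against LAG-3-low no call is made on the 10 genes. As a description, the 9 without *Atp6v0d2* passed both thresholds in no setting and with no library left out. The settings included a table without neutrophil and monocyte markers, chosen after seeing the data. For LAG-3-low against WT 3 of the 9 tested genes were called, 1 with the length and GC correction, 2 with WT libraries 2 and 3 alone (chosen after seeing the data) and 1 to 4 with a library left out. For LAG-3-high against WT the 6 of 9 became 4 with library totals and with WT libraries 2 and 3 alone, and 5 to 6 with a library left out. For P140 against P120 in LAG-3+/+ the 7 of 9 became 4 at 0.05, with the correction and with library totals, and 3 to 7 with a library left out; with *Atp6v0d2* counted these are 8, 5 and 3 to 8. For genotype at P140 the 3 of 10 became 1 at 0.05 and with the correction, 6 with DESeq2, 0 with 2 groups alone, and 0 to 6 with a library left out. Of the 9 without *Atp6v0d2*, DESeq2 called 0 for genotype at P120 and 2 for the interaction, where edgeR called 0 and leaving out a library gave 0 to 4 for the interaction. The cord count stayed at 1 of 10 and P140 against P120 in LAG-3-/- at 0. Without length scaling the share of *Atp6v0d2* was 55.9% in LAG-3-high, 2.98% in LAG-3+/+ cord and 0.545% in LAG-3-/- cord.

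Averaged over all pairs of groups, same-numbered libraries did not deviate together. Across the sorted fractions, numbers 2 and 4 did so weakly (r = 0.0666 and 0.0674). With the replicate block the genes called were 2 of 10 for genotype at P140 and as many as without it elsewhere (for LAG-3-low against WT *Atp6v0c* came in and *Atp6v1a* dropped out). Over all genes the block gave 814 calls for genotype at P140 (1908 without), 2257 for LAG-3-low against WT (3614), 0 for the interaction (32) and 1 for genotype at P120 (2). Between the fractions the block was fitted on those 2 groups alone and gave 1333 calls. Without the block the same 2 groups gave 1450, and the fit that includes WT gave 576. The correction left 976 of 1908 calls for genotype at P140 and 810 of 1331 in cord. DESeq2 called 4281 for genotype at P140, 988 between the fractions, 1301 for the interaction, 134 for genotype at P120 and 449 for stage in LAG-3-/- (0 by edgeR). Fits of 2 groups called 1450 between the fractions, 2663 and 1721 for LAG-3-high and LAG-3-low against WT (4464 and 3614), and 0 and 31 for genotype at P140 and P120. Depth limits *Atp6v0d2* where it has few or no counts.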
